A study of Mus musculus with 4 samples.

Results

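A set of 10 genes of the vascular basement membrane was followed across the vessel cells of the mouse brain: Col4a1, Col4a2, Lama4, Lama5, Lamb1, Lamc1, Nid1, Hspg2, Sparc and Fn1. They were taken by name as a fixed set of 10 among the 32285 genes of the deposited tables, and all 10 were found there. The PLX5622 mice were C57BL6 animals that ate a diet with 1200 ppm PLX5622 for 1 month, an inhibitor of the receptor CSF1R that microglia need to survive. The control mice were C57BL6 animals that ate control diet for the same time, and the series asked what loss of microglia does to the brain's vessels. Each diet had 2 single-cell libraries of CD31-sorted brain cells, made from 3 mice in all, so a library is not an animal and p-values measure the spread between libraries. Meninges, cerebellum and olfactory bulbs had been removed. CD31 is an endothelial surface protein, so pericytes and smooth muscle cells are present only as far as they passed this sort. The sources used here give neither age nor sex of the mice.

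The basement membrane is a thin sheet of matrix on which endothelial cells sit and in which pericytes are embedded. Type IV collagen chains, laminin trimers, nidogen and perlecan are its main parts. Laminins are trimers of an alpha, a beta and a gamma chain: the alpha4 and alpha5 chains are the main endothelial ones, and the ratio between them is known to vary along the vessel tree. Nidogen and perlecan link the laminin and collagen networks. SPARC is a collagen-binding matricellular protein, and fibronectin is a large adhesive glycoprotein that assembles into fibrils at cell surfaces.

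Col4a1 and Col4a2 encode the alpha1 and alpha2 chains of the most widespread type IV collagen trimer. The genes lie head to head on mouse chromosome 8. In GENCODE M21 on GRCm38, Col4a1 spans chr8:11198423-11312826 on the minus strand and Col4a2 spans chr8:11312805-11449287 on the plus strand, so their 5' ends overlap. The promoter windows are printed because the levels of these genes moved together along the vessel zones in these libraries. Each window runs from 250 bases before to 50 bases after the gene's start in RefSeq on GRCm38.p6, 5' to 3' on the gene's own strand. Capitals mark the 78 bases that the windows share on opposite strands. The Col4a1 window is chr8:11312777-11313076 on the minus strand, the Col4a2 window is chr8:11312555-11312854 on the plus strand, and the shared part is chr8:11312777-11312854.
Col4a1: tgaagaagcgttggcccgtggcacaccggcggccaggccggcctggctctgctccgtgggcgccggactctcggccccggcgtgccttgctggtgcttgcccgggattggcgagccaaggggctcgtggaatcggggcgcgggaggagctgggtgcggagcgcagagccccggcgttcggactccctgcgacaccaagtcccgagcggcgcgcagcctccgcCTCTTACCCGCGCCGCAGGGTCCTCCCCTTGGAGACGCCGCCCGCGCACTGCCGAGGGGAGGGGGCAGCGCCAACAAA
Col4a2: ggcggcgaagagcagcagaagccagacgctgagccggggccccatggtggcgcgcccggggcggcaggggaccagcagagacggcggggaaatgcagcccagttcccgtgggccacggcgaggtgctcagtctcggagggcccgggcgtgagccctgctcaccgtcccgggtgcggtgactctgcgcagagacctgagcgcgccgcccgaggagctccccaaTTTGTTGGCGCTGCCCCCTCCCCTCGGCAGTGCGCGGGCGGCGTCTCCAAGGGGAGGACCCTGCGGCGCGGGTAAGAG
The annotated RefSeq starts lie 21 bases apart. Searched on both strands, the letters GGGCGG, the core of a GC box, occurred 1 time in the Col4a1 window and 3 times in the Col4a2 window, with 1 match in the shared part. CCAAT occurred 1 time in each window and not in the shared part. Of 27025 mouse promoter windows of the same length, 35.9% held GGGCGG and 37.9% held CCAAT. A match describes the letters only. Genes annotated as overlapping a member on its own strand are Gm44716 for Col4a1, Gm38009 for Lamc1, Mir7005 for Lama5 and Mir7018 for Hspg2, and no source used here says how the counting divided such reads.

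The libraries held 11186648 to 38600208 UMIs (unique molecular identifiers, each standing for 1 captured RNA molecule). A barcode counted as a cell from 1000 UMIs and 500 genes upward if no more than 10% of its UMIs were mitochondrial. By this rule the PLX5622 libraries gave 3989 and 3670 cells and the control libraries 1696 and 5509. Pairs of libraries shared 1 to 6 cell barcodes. Over all barcodes, Csf1r was counted 1 and 5 times in the PLX5622 libraries, against 253 and 57 times in the control libraries. Clustering without the 10 genes and without the other matrix genes gave 12784 endothelial-like cells. Named from markers, these comprised 1899 arterial-like, 7396 capillary-like, 1391 venous-like and 19 fenestrated-like cells, beside clusters without a zone name. Of the capillary-like cells, 1845 carried markers of the arterial side and 4018 markers of the venous side. A cluster of 1339 cells (cluster E4) carried markers of arterial-side capillaries together with arterial genes among its leading genes, so it got no zone name and is given by its number.

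Outside the endothelium, 287 cells were pericyte-like and 227 were smooth muscle-like. The pericyte-like class held much endothelial RNA: its summed endothelial markers stood at 62.5% to 75.8% of the endothelial level. Levels of mural genes are therefore given for the cells in which endothelial markers made up under 0.5% of UMIs. This left 35 and 20 pericyte-like cells in the PLX5622 libraries and 8 and 30 in the control libraries, and 56, 57, 35 and 58 smooth muscle-like cells in the same order of libraries. In these cells the endothelial markers stood at 0.79% to 1.95% of the endothelial level for pericytes and 0.69% to 1.79% for smooth muscle. The markers given next also named these clusters, so their levels are no separate check of the names. Vtn stood at 16090 to 22706 CPM (UMIs of the gene scaled to a class total of 1e6 in that library) and Kcnj8 at 980 to 1693 CPM in the pericytes, and Acta2 at 9806 to 10745 CPM in the smooth muscle cells. The cells were classed from their own RNA, so level differences between classes are described by their size, their spread over the 4 libraries and whether the library ranges overlap, with no test.

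From artery to vein, type IV collagen ran highest at the arterial end of the endothelium and lowest at the venous end. Col4a1 stood at 575 and 554 CPM in arterial-like cells of the PLX5622 libraries and at 619 and 498 CPM in those of the control libraries. In arterial-side capillary-like cells it stood at 466 and 479 CPM on PLX5622 diet and 517 and 438 CPM on control diet. Venous-side capillary-like cells had 406 and 433 CPM on PLX5622 diet and 440 and 345 CPM on control diet, and venous-like cells 368 and 359 CPM on PLX5622 diet and 380 and 367 CPM on control diet. The lowest arterial library thus lay above the highest venous one, while the ranges of neighbouring zones overlapped. Cluster E4, at 418 to 480 CPM, lay among the capillaries. As a log2 ratio of venous-like over arterial-like cells, Col4a1 was at -0.60 ± 0.11 (SD, n = 4 libraries), that is 1.52-fold lower in venous-like cells.

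Col4a2 followed the same slope. It stood at 199 and 193 CPM in venous-like cells of the PLX5622 libraries and 244 and 219 CPM in those of the control libraries, against 323, 320, 375 and 308 CPM in arterial-like cells of the same libraries. Its venous over arterial log2 ratio was -0.63 ± 0.11 (SD, n = 4), and the zones did not overlap. The level ratio of Col4a1 to Col4a2 ran from 1.51 to 1.86 over the libraries of arterial-like, capillary-like and venous-like cells and cluster E4. Across the 16 sums of 4 named zones in 4 libraries, with each library centred, the pair had a Pearson correlation of 0.978. The sums share libraries and the clustering that made the zones, so this is a description only.

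The laminin chains split along the vessel. Lama5, the alpha5 chain, was lower in venous-like cells, at 52.9 and 51.8 CPM on PLX5622 diet and 59.3 and 55.9 CPM on control diet, against 82.2, 88.2, 93.7 and 75.7 CPM in arterial-like cells of those libraries. Lama4, the alpha4 chain, was higher in venous-like cells, at 53.3 and 48.4 CPM on PLX5622 diet and 38.3 and 39.6 CPM on control diet, against 34.9, 35.5, 36.1 and 31.5 CPM in arterial-like cells. Neither pair of ranges overlapped, and for Lama4 the gap was small, from 36.1 to 38.3 CPM. The log2 ratios of venous-like over arterial-like cells were -0.62 ± 0.14 for Lama5 and 0.36 ± 0.22 for Lama4 (SD, n = 4 libraries). The capillaries showed the same split for Lama5, which had 60.7, 56.8, 66.5 and 60.4 CPM in venous-side cells (PLX5622 1 and 2, control 1 and 2) against 81.7, 78.3, 98.4 and 79.1 CPM in arterial-side cells. Cluster E4 had 51.0 to 87.9 CPM of Lama5, a range that overlapped both sides. Lama4 was higher on the venous side in 4 of 4 libraries, at 55.1, 52.6, 42.8 and 45.3 CPM against 46.0, 38.3, 37.6 and 31.2 CPM on the arterial side, with ranges that overlapped.

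The balance of these alpha chains shifted accordingly. The ratio of Lama4 to Lama5 counts was 1.01 and 0.93 in venous-like cells of the PLX5622 libraries and 0.65 and 0.71 in those of the control libraries, against 0.42, 0.40, 0.39 and 0.42 in arterial-like cells. Venous-like cells lay above arterial-like cells in every library. Within venous-like cells both PLX5622 libraries lay above both control libraries, and the same was seen in venous-side capillary-like cells (0.91 and 0.93 on PLX5622 diet, 0.64 and 0.75 on control diet). It was also seen in arterial-side capillary-like cells (0.56 and 0.49 on PLX5622 diet, 0.38 and 0.39 on control diet). Over all endothelial-like cells the ratios were 0.73 and 0.73 on PLX5622 diet and 0.49 and 0.61 on control diet. In arterial-like cells and cluster E4 the diets overlapped. All these classes come from the same 4 libraries, and endothelial-like cells include the zones, so the classes are not independent of each other. With 2 libraries a diet, such an order can also arise without a diet effect. These ratios are descriptions, and the diet was tested gene by gene.

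Lamc1, the gamma1 chain found in most laminin trimers, stood at 40.5, 37.3, 52.8 and 40.1 CPM in venous-like cells (PLX5622 1 and 2, control 1 and 2), against 75.1, 65.5, 68.6 and 61.4 CPM in arterial-like cells. Its log2 ratio was -0.66 ± 0.22 (SD, n = 4), with no overlap. Unlike Lama5, Lamc1 did not separate the capillary sides, with 45.6 to 66.1 CPM on the venous side and 49.5 to 57.1 CPM on the arterial side. Lamb1, the beta1 chain, was counted with 25 UMIs in all endothelial-like cells of the 4 libraries, 0.334 CPM with an exact 95% Poisson interval of 0.216 to 0.494, which covers counting error only. Of these, 1 and 4 UMIs came from the 6 and 13 fenestrated-like cells of control libraries 1 and 2, at 42.1 and 39.5 CPM. The other broad beta chain, Lamb2, stood at 138 and 133 CPM on PLX5622 diet and 149 and 143 CPM on control diet in the same cells.

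Of the linker proteins, perlecan and nidogen-1 ran differently along the vessel. Hspg2, which encodes perlecan, stood at 67.2, 59.8, 50.6 and 56.9 CPM in venous-like cells (PLX5622 1 and 2, control 1 and 2), against 118, 112, 109 and 87.9 CPM in arterial-like cells. It was 1.82-fold lower in venous-like cells, with a log2 ratio of -0.85 ± 0.20 (SD, n = 4), and the zones did not overlap. Mean Hspg2 was highest in arterial-side capillary-like cells (121 CPM), ahead of cluster E4 (111 CPM) and arterial-like cells (107 CPM), with ranges that overlapped. Nid1 peaked between the ends: venous-side capillary-like cells had 49.6 and 37.6 CPM on PLX5622 diet and 42.8 and 45.5 CPM on control diet. Arterial-side capillary-like cells had 19.0, 23.2, 30.4 and 26.3 CPM in the same libraries, arterial-like cells 14.2 to 25.7 CPM and venous-like cells 18.3 to 28.9 CPM. The venous-side capillary range lay above those of arterial-like, arterial-side capillary-like and venous-like cells and of cluster E4, which had 22.8 to 30.7 CPM.

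Fibronectin ran against collagen IV. Fn1 stood at 1029 and 1045 CPM in venous-like cells of the PLX5622 libraries and 1179 and 1063 CPM in those of the control libraries, against 617, 685, 648 and 575 CPM in arterial-like cells. Its log2 ratio was 0.77 ± 0.13 (SD, n = 4), a 1.71-fold higher level in venous-like cells. Venous-side capillary-like cells lay between, at 814 and 881 CPM on PLX5622 diet and 957 and 894 CPM on control diet, and arterial-side capillary-like cells at 526 to 784 CPM overlapped the arterial range. Cluster E4 had 676 to 853 CPM of Fn1. Sparc varied least: 1107, 1018, 1246 and 1075 CPM in venous-like cells against 900, 935, 1054 and 899 CPM in arterial-like cells, with a log2 ratio of 0.23 ± 0.08 (SD, n = 4). Sparc was higher in venous-like cells in 4 of 4 libraries, but the ranges overlapped.

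**Figure D1:**
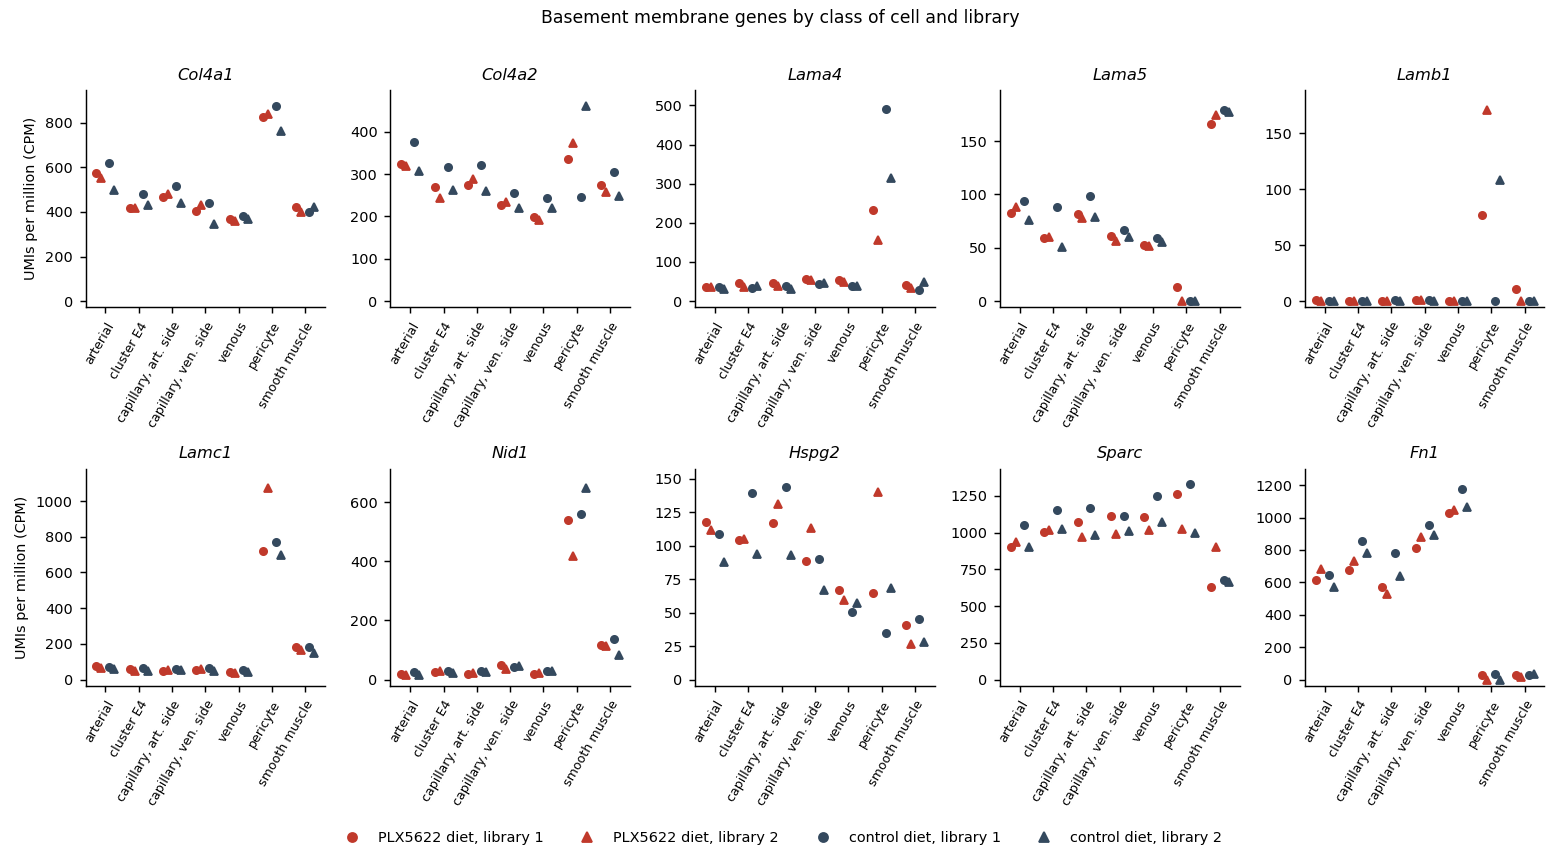
Level of each of the 10 genes in CPM (linear axis, own scale for each gene) in the vessel zones, cluster E4, pericytes and smooth muscle cells with little endothelial RNA; each point is 1 library, coloured by diet and shaped by library number. Col4a1, Col4a2 and Lama5 are lower and Fn1 is higher in venous-like than in arterial-like cells, without a steady step through the classes plotted between. Lamc1 and Nid1 stand highest in pericytes.

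In all, 7 of the 9 genes at 20 CPM or more in either zone had venous-like and arterial-like library ranges that did not overlap, 5 lower and 2 higher in venous-like cells. Over all 6599 genes at that level, 26.8% had ranges that did not overlap, with 14.5% lower and 12.3% higher in venous-like cells. Between the capillary sides, 4 of 9 genes lay apart, with Nid1 and Fn1 higher and Col4a2 and Lama5 lower on the venous side. Of 6377 genes 14.3% lay apart, 7.09% higher and 7.24% lower. Keeping the 10 genes and the other matrix genes in the clustering gave 8 genes apart between venous-like and arterial-like cells, and Col4a1 then had a log2 ratio of -0.48.

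**Figure D2:**
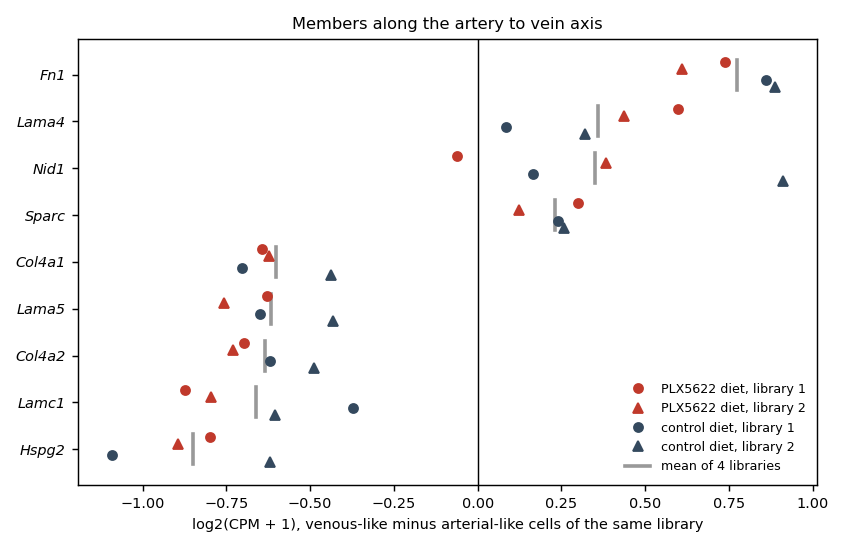
Log2(CPM + 1) in venous-like minus arterial-like cells of the same library for the 9 genes at 20 CPM or more; points are libraries and grey bars the mean over the 4 libraries. Col4a1, Col4a2, Lama5, Lamc1 and Hspg2 lie below 0 in every library, and Lama4, Sparc and Fn1 lie above 0 in every library.

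The genes whose zone pattern was most like that of Col4a1, Col4a2, Lama5, Lama4, Hspg2, Lamc1, Nid1 and Sparc were named by Pearson correlation over the same 16 sums, among 6190 genes with a mean of at least 20 CPM. For Col4a1 they were 4930523C07Rik, Arpc2 and Msn, with correlations of 0.979 to 0.981. For Col4a2 they were Gcnt2, Sema3g and Syn3 at 0.981 to 0.986, of which Sema3g is itself an arterial marker used to name the zones. Crip2, Capn2 and Runx1t1 were nearest to Lama5 (0.979 to 0.987), and Slc16a4, Spns2 and Slco1a4 to Lama4 (0.941 to 0.961). Akap12, Plcb1 and Ets2 were nearest to Hspg2 (0.952 to 0.967), and Tpm4, Strn3 and Efr3b to Lamc1 (0.932 to 0.946). Igf1r, Tdrp and Snhg8 were nearest to Nid1 (0.909 to 0.914), and Sesn1, Imp3 and Tjp1 to Sparc (0.914 to 0.936). Among the members, Fn1 ran opposite to Col4a2 (-0.9) and Lama5 (-0.906). All of these are descriptions over sums that share libraries, zones and depth.

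Pericytes with little endothelial RNA carried the highest levels of the laminin gamma1 chain and nidogen-1. Lamc1 stood at 722 and 1072 CPM in pericytes of the PLX5622 libraries and 770 and 696 CPM in those of the control libraries, against 56.0, 54.9, 61.9 and 49.7 CPM in endothelial-like cells. Nid1 stood at 541, 419, 560 and 647 CPM in pericytes against 32.8, 28.9, 34.5 and 30.01 CPM in endothelial-like cells. By the ratio of means, Lamc1 was 14.7-fold and Nid1 17.2-fold higher in pericytes, with log2 ratios of 3.83 ± 0.30 and 4.05 ± 0.24 (SD, n = 4).

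Both alpha and beta chains also differed in pericytes. Lama4 stood at 232 and 155 CPM in pericytes on PLX5622 diet and 490 and 314 CPM on control diet, against 48.3, 46.0, 39.5 and 39.2 CPM in endothelial-like cells, a 6.88-fold higher mean. Both control libraries lay above both PLX5622 libraries in these pericytes. The control 1 sum holds 28590 UMIs from 8 cells, and the diet was not tested in this subset. Over all pericyte-like cells the diet test of Lama4 gave a log2 fold change of -0.13 with an interval of -0.65 to 0.38 (edgeR adjusted p = 0.997). That class holds endothelial markers at 62.5% to 75.8% of the endothelial level, and in endothelial-like cells the Lama4 fold change was 0.30. The value is therefore not a test of the pericytes with little endothelial RNA. Lama5 was counted 1 time in all 93 pericytes, 3.67 CPM with an exact Poisson interval of 0.0929 to 20.4, against 63.1 to 80.9 CPM in endothelial-like cells. Lamb1 was counted 28 times, with 77.3, 171, 0 and 108 CPM in the 4 libraries and a pooled 103 CPM (68.2 to 148), against the pooled 0.334 CPM of endothelial-like cells. In 3 of 4 libraries the pericytes lay above every endothelial sum, and the 8 pericytes of control 1 had none. Lama2, the alpha2 chain from the list of other basement membrane genes, stood at 175 to 419 CPM in pericytes and at 0.119 to 0.477 CPM in endothelial-like cells.

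Collagen IV and perlecan set the pericytes less far apart. Col4a1 stood at 825, 839, 874 and 764 CPM in pericytes against 431, 442, 488 and 411 CPM in endothelial-like cells, 1.86-fold higher with a log2 ratio of 0.90 ± 0.04 (SD, n = 4). Col4a2 stood at 335, 373, 245 and 461 CPM in pericytes against 247, 247, 302 and 252 CPM in endothelial-like cells, and its ranges overlapped. The ratio of Col4a1 to Col4a2 was 2.46, 2.25, 3.57 and 1.66 in pericytes, against 1.61 to 1.79 in endothelial-like cells, with overlap through control 2. The pericyte ratios rest on 26, 24, 7 and 47 Col4a2 UMIs in the same order of libraries. Hspg2 (35.0 to 140 CPM) and Sparc (1000 to 1329 CPM) overlapped the endothelial ranges.

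Fibronectin RNA was far higher in endothelial-like cells than in the pericytes and smooth muscle cells with little endothelial RNA. Fn1 was counted 3 times in the 93 pericytes, with an exact Poisson interval of 2.27 to 32.2 CPM for the pooled level, against 758, 823, 887 and 815 CPM in endothelial-like cells. The endothelial markers left in those pericytes would carry 6.71 to 14.8 CPM of Fn1 at the endothelial ratio, so this count is at the background. In smooth muscle cells with little endothelial RNA, Fn1 stood at 29.98, 17.3, 27.3 and 34.9 CPM, while their endothelial markers would carry 5.68 to 15.8 CPM.

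Smooth muscle cells had the highest Lama5 level of the classes compared. Lama5 stood at 166, 175, 179 and 178 CPM in smooth muscle cells against 65.7, 63.1, 80.9 and 64.1 CPM in endothelial-like cells, 2.55-fold higher. Lamc1 was 3.10-fold higher, at 185, 167, 185 and 151 CPM in smooth muscle cells, and Nid1 was 3.58-fold higher, at 117, 113, 137 and 84.7 CPM. The ratio of Lama4 to Lama5 counts in smooth muscle was 0.15 to 0.27, below that of every endothelial zone. Hspg2 was lower in smooth muscle cells, at 26.9 to 45.6 CPM against 80.3 to 106 CPM in endothelial-like cells, and Sparc at 627 to 899 CPM lay below the endothelial 984 to 1145 CPM. Col4a1 at 401 to 424 CPM, Col4a2 and Lama4 overlapped the endothelial ranges.

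Genes with a mean of 20 CPM or more in either class of a comparison were counted. Of the 10 genes, 6 had pericyte ranges apart from those of endothelial-like cells, 4 higher and 2 lower, against 39% of 7851 genes, of which 18.7% higher and 20.3% lower. The 2 lower ones, Lama5 and Fn1, reached 20 CPM in endothelial-like cells only. Of 9 genes, 6 had smooth muscle ranges apart from those of endothelial-like cells, 3 higher and 3 lower. Of 7321 genes 60.4% lay apart, 25.6% higher and 34.8% lower, so the count of members is near the background. Between pericytes and smooth muscle cells 6 of 10 lay apart, with Col4a1, Lama4, Lamc1, Nid1 and Sparc higher and Lama5 lower in pericytes, against 26.3% of 7443 genes (14.5% higher, 11.8% lower). Lama5 reached 20 CPM there in smooth muscle cells only. Over all pericyte-like cells, endothelial RNA included, 5 of 10 genes lay apart from endothelial-like cells, 4 higher and 1 lower, against 24.2% of 6991 genes (14% higher, 10.2% lower). Among the 4 higher ones, Lamb1 reached 20 CPM in pericyte-like cells only. Barcodes with under 100 UMIs, which hold free RNA, had an endothelial pattern of the 10 genes, with Fn1 at 751 to 766 CPM, Col4a1 at 369 to 419 CPM and Lamb1 at 0.571 to 3.65 CPM.

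No gene of the 10 changed with the diet at an adjusted p of 0.05 (edgeR's quasi-likelihood test on UMI sums per library, Benjamini-Hochberg adjusted over all genes tested). In endothelial-like cells 9 of the 10 were tested and 0 were called, against 1.15% of all 12732 genes tested. Lamb1 was below the count filter there. DESeq2 and limma-voom called 0 as well, and 1 gene, Lama4, had an unadjusted p below 0.05 by edgeR, as had 1335 of the 12732 genes. Col4a1 stood at 431 and 442 CPM on PLX5622 diet against 488 and 411 CPM on control diet, with a log2 fold change of 0.01 and a 95% confidence interval of -0.23 to 0.25. Fn1 stood at 758 and 823 CPM on PLX5622 diet against 887 and 815 CPM on control diet, with a log2 fold change of -0.06 and an interval of -0.32 to 0.20. The intervals of the 9 genes lay between -0.33 and 0.49, so larger changes of a gene's level lie outside them while smaller ones remain possible.

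The other tested genes also had diet groups that overlapped or intervals that held 0 in endothelial-like cells. Hspg2 stood at 97.7 and 104 CPM on PLX5622 diet against 106 and 80.3 CPM on control diet (log2 fold change 0.18, interval -0.04 to 0.40). Col4a2 stood at 247 and 247 CPM on PLX5622 diet against 302 and 252 CPM on control diet (-0.11, interval -0.33 to 0.11), and Lama5 at 65.7 and 63.1 CPM against 80.9 and 64.1 CPM (-0.11, interval -0.32 to 0.10). For Col4a2 the control libraries lay above the PLX5622 libraries by a few CPM at the nearest, and for Lama5, Hspg2 and Fn1 the diets overlapped. Lamc1 (0.06, interval -0.15 to 0.26), Nid1 (-0.01, interval -0.23 to 0.21) and Sparc (-0.03, interval -0.30 to 0.24) had fold changes nearer to 0. The median over the 9 genes was -0.0083, against 0.0038 over all genes tested.

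Lama4 came nearest to a call. It stood at 48.3 and 46.0 CPM on PLX5622 diet against 39.5 and 39.2 CPM on control diet, and the diets did not overlap. Its log2 fold change was 0.30 (SE 0.09, interval 0.10 to 0.49, edgeR adjusted p = 0.171). In capillary-like cells the log2 fold change was 0.31 (adjusted p = 0.268, edgeR) and in venous-like cells 0.38 (adjusted p = 0.384, edgeR), while arterial-like cells gave 0.11 with an interval of -0.25 to 0.47. Lama4 is a gene of high pericyte level, and the summed pericyte markers in endothelial-like cells were 252 and 208 CPM on PLX5622 diet against 185 and 183 CPM on control diet (10 of 10 markers detected, none at 0). Most of this sum was Rgs5, at 235 and 193 CPM on PLX5622 diet against 172 and 167 CPM on control diet, a gene that smooth muscle cells also carried at 4555 to 6195 CPM. Vtn, at 5.86 and 5.40 CPM on PLX5622 diet against 3.79 and 5.89 CPM on control diet, and Abcc9, at 1.77 and 1.56 CPM against 1.78 and 1.99 CPM, did not lie higher in both PLX5622 libraries. In the endothelial-like cells without a single mural marker UMI, Lama4 stood at 45.6 and 43.5 CPM on PLX5622 diet against 42.0 and 40.4 CPM on control diet, with a log2 fold change of 0.15. Nid1 and Lamc1 were 17.2-fold and 14.7-fold higher in pericytes with little endothelial RNA, against 6.88-fold for Lama4. Their diet log2 fold changes in endothelial-like cells were -0.01 and 0.06. Whether pericyte RNA adds to the Lama4 difference was not tested.

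Across the other classes the counts were the same. In arterial-like cells 0 of 9 tested genes were called, against 0.398% of 10290 genes, and Hspg2 had an unadjusted p below 0.05 (log2 fold change 0.27, 118 and 112 CPM on PLX5622 diet against 109 and 87.9 CPM on control diet, edgeR adjusted p = 0.708). In capillary-like cells 0 of 9 were called against 1.1% of 11760 genes. The largest capillary cluster differed between libraries, E0 in PLX5622 1 and control 2, E1 in PLX5622 2 and E2 in control 1. In venous-like cells 0 of 9 were called against 1.35% of 10145 genes, with Lama4 and Nid1 at an unadjusted p below 0.05. Nid1 stood at 18.3 and 21.6 CPM in venous-like cells on PLX5622 diet against 28.9 and 27.7 CPM on control diet, a log2 fold change of -0.46 (SE 0.21, edgeR adjusted p = 0.461). DESeq2 gave no gene an unadjusted p below 0.05 in these zones, and limma-voom gave 1, 1 and 2 genes in arterial-like, capillary-like and venous-like cells with 0 called.

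In mural cells the spread was wider. The pericyte-like class was tested whole, with endothelial markers at 62.5% to 75.8% of the endothelial level, so its fold changes are those of mixed RNA. Its summed pericyte markers were 17555 and 11480 CPM on PLX5622 diet against 11354 and 12227 CPM on control diet. Its erythroid markers were 170 and 15477 CPM on PLX5622 diet against 21.0 and 66.8 CPM on control diet. In pericyte-like cells all 10 genes were tested and 0 called, against 0% of 6559 genes, and 0 had an unadjusted p below 0.05 by edgeR, DESeq2 or limma-voom. Lamb1, tested there alone, stood at 42.5 and 36.2 CPM on PLX5622 diet against 25.2 and 24.7 CPM on control diet, with a log2 fold change of 0.67 and an interval of -0.19 to 1.52. In smooth muscle-like cells 0 of 9 were called, against 0% of 6389 genes, and 0 had an unadjusted p below 0.05 by any of these tools. Fn1 had the widest interval there: 43.1 and 38.5 CPM on PLX5622 diet against 38.2 and 131 CPM on control diet, with a log2 fold change of -1.20 (SE 0.58, edgeR adjusted p = 0.997). Control library 2 was high. Endothelial markers in its smooth muscle-like cells stood at 13.2% of the endothelial level, against 2.90% to 6.95% in the other libraries. A share of 13.2% would carry 108 CPM of Fn1. Erythroid markers in the same cells summed to 6211 CPM, against 35.9 and 52.5 CPM in PLX5622 1 and 2 and 8.83 CPM in control 1. The source of the high Fn1 value was not tested. Without control replicate 1 the fold change was -1.65 with an adjusted p of 1.06e-05, and without control replicate 2 it was 0.13 (edgeR; adjusted p over all alternatives 1.06e-05 to 1.00). In the smooth muscle cells with little endothelial RNA it was -0.46.

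**Figure D3:**
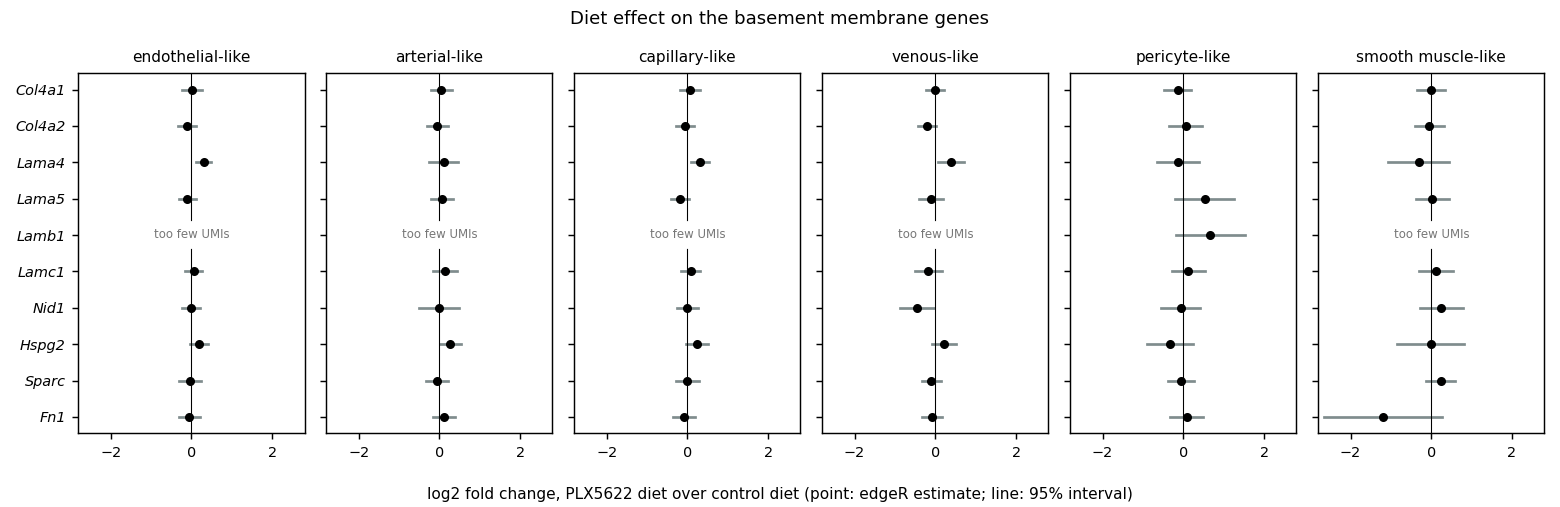
Log2 fold change of PLX5622 over control diet for each gene in the 6 cell classes, with 95% confidence intervals from edgeR's quasi-likelihood fit on 2 libraries a diet. No gene was called in any class; Lama4 lies above 0 in endothelial-like cells (0.30) and the widest interval is that of Fn1 in smooth muscle-like cells.

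Whether the diet effect differed between zones was tested as a zone by diet term with library as a block, over 12 sums of 3 zones in 4 libraries. None of the 9 genes tested was called for arterial-like against capillary-like cells (0.54% of 11297 genes called) or for venous-like against capillary-like cells (0.381% called). The smallest adjusted p was 0.194, for Fn1 in arterial-like cells, with a difference of 0.21 (SE 0.07) on the log2 scale (edgeR). Unadjusted p-values below 0.05 were seen for Fn1 and Lama5 in arterial-like cells and Nid1 in venous-like cells. Without the library block 0 were called too. DESeq2 and limma-voom were not run for this term.

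Other genes of the matrix were read in 4 lists of 85 genes in all: other basement membrane components, matrix receptors, collagen modification and secretion, and matrix turnover. In endothelial-like cells 22 of 32 other basement membrane genes were tested, with 0 higher and 1 lower on PLX5622 diet, 4 at an unadjusted p below 0.05 by edgeR and a median log2 fold change of 0.0021. Of 21 receptors 16 were tested with 0 called (median -0.02), and 1 had an unadjusted p below 0.05 by edgeR. Of 16 collagen modification genes 15 were tested with 0 called and 4 at an unadjusted p below 0.05 by edgeR (median 0.08). Of 16 turnover genes 10 were tested, with 1 higher, 0 lower and 4 at an unadjusted p below 0.05 (median -0.07). Over all 12732 genes 1.15% were called, 1335 had an unadjusted p below 0.05 and the median was 0.0038. In pericyte-like and smooth muscle-like cells no gene of the lists was called by edgeR, against 0% of all genes in either class. In pericyte-like cells 0 genes of the lists had an unadjusted p below 0.05, against 325 of all 6559 genes. In smooth muscle-like cells the counts were 2 of 16 other basement membrane genes, 0 of 14 receptors, 4 of 12 collagen modification genes and 1 of 7 turnover genes, against 291 of all 6389 genes.

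The collagen prolyl hydroxylase gene P4ha1, whose enzyme subunit helps to stabilise the collagen triple helix, gave the clearest diet change. It stood at 45.9 and 30.1 CPM in arterial-like cells on PLX5622 diet against 12.2 and 15.1 CPM on control diet, and the diets did not overlap. Its log2 fold change was 1.37 (SE 0.22, edgeR adjusted p = 8.36e-06) there and 1.13 (SE 0.16, adjusted p = 0.000775) in capillary-like cells, with 52.4 and 36.7 CPM on PLX5622 diet against 18.3 and 21.8 CPM on control diet. In venous-like cells it was 0.44 (adjusted p = 0.427, edgeR), and the zone by diet terms did not call P4ha1 (0.28 with an adjusted p of 0.973 in arterial-like cells and -0.62 with an adjusted p of 0.237 in venous-like cells, each against capillary-like cells, edgeR). Over all endothelial-like cells the log2 fold change was 1.051 with an adjusted p of 0.054, and DESeq2 gave 1.08 with an adjusted p of 1.9e-05 (adjusted p over all alternatives 5.4e-17 to 0.241). The call in capillary-like cells was lost without control replicate 2 (1.36, adjusted p = 0.0584), and that in arterial-like cells was lost in cells without mural marker UMIs (1.09, adjusted p = 0.28). Over all alternatives the adjusted p ran from 3.91e-14 to 0.0584 in capillary-like cells and from 4.27e-07 to 0.28 in arterial-like cells.

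Mmp15 and Fbln2 were the genes called in endothelial-like cells. Mmp15, a membrane-anchored matrix metalloproteinase, stood at 38.5 and 37.2 CPM on PLX5622 diet against 29.4 and 24.99 CPM on control diet, with a log2 fold change of 0.54 (SE 0.10, edgeR adjusted p = 0.00846). Without control replicate 2 it was 0.46 (adjusted p = 0.131, the highest over the alternatives, of which the lowest was 0.000152). Fbln2, which encodes the elastic fibre and basement membrane protein fibulin-2, stood at 20.02 and 23.2 CPM on PLX5622 diet against 35.1 and 33.0 CPM on control diet, with a log2 fold change of -0.60 (SE 0.11, edgeR adjusted p = 0.00719). Fbln2 is mostly an arterial transcript here, with 112 to 149 CPM in arterial-like cells and 0 to 3.08 CPM in venous-like cells. Arterial-like cells made up 12.63% and 14.98% of endothelial-like cells on PLX5622 diet and 16.04% and 15.99% on control diet. In arterial-like cells alone Fbln2 was not called (-0.37, edgeR adjusted p = 0.316). It was not called in capillary-like cells either (-0.72, edgeR adjusted p = 0.259). Fbln2 stood there at 5.87 and 3.77 CPM on PLX5622 diet against 8.91 and 7.40 CPM on control diet. Smooth muscle-like cells gave -2.01 (edgeR adjusted p = 0.706). Whether the arterial share adds to the change in endothelial-like cells was not tested. With the zones weighted equally the change was -0.40 (adjusted p = 0.0697). The call was also lost without PLX5622 replicate 1 (-0.51, adjusted p = 0.059), without control replicate 1 (-0.61, adjusted p = 0.0518) and without control replicate 2 (-0.59, adjusted p = 0.118). The adjusted p of Fbln2 ran from 2.83e-05 to 0.118 over all alternatives.

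In arterial-like cells Mmp15 was higher by 0.71 (SE 0.18, edgeR adjusted p = 0.0387), at 58.8 and 40.4 CPM on PLX5622 diet against 28.2 and 30.6 CPM on control diet. That call was lost without PLX5622 replicate 1 (0.46), without control replicate 1 (0.64) and without control replicate 2 (0.83), and with DESeq2 (0.75). Venous-like cells held 3 calls. Tgm2, the crosslinking enzyme transglutaminase 2, was higher at 323 and 287 CPM on PLX5622 diet against 239 and 194 CPM on control diet (0.54, SE 0.11, edgeR adjusted p = 0.00328). It was not called without PLX5622 replicate 1 (0.45) or without control replicate 2 (0.40). Hmcn1, the basement membrane protein hemicentin-1, was lower at 291 and 253 CPM on PLX5622 diet against 394 and 350 CPM on control diet (-0.42, SE 0.11, edgeR adjusted p = 0.0347), and was not called without PLX5622 replicate 1 (-0.53) or 2 (-0.31). Htra3, a secreted serine protease, was lower at 2.96 and 4.01 CPM on PLX5622 diet against 11.6 and 12.1 CPM on control diet (-1.71, SE 0.38, edgeR adjusted p = 0.00539). It was not called without PLX5622 replicate 1 (-1.56), PLX5622 replicate 2 (-1.97) or control replicate 2 (-1.62). DESeq2 called none of these in venous-like cells.

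**Figure D4:**
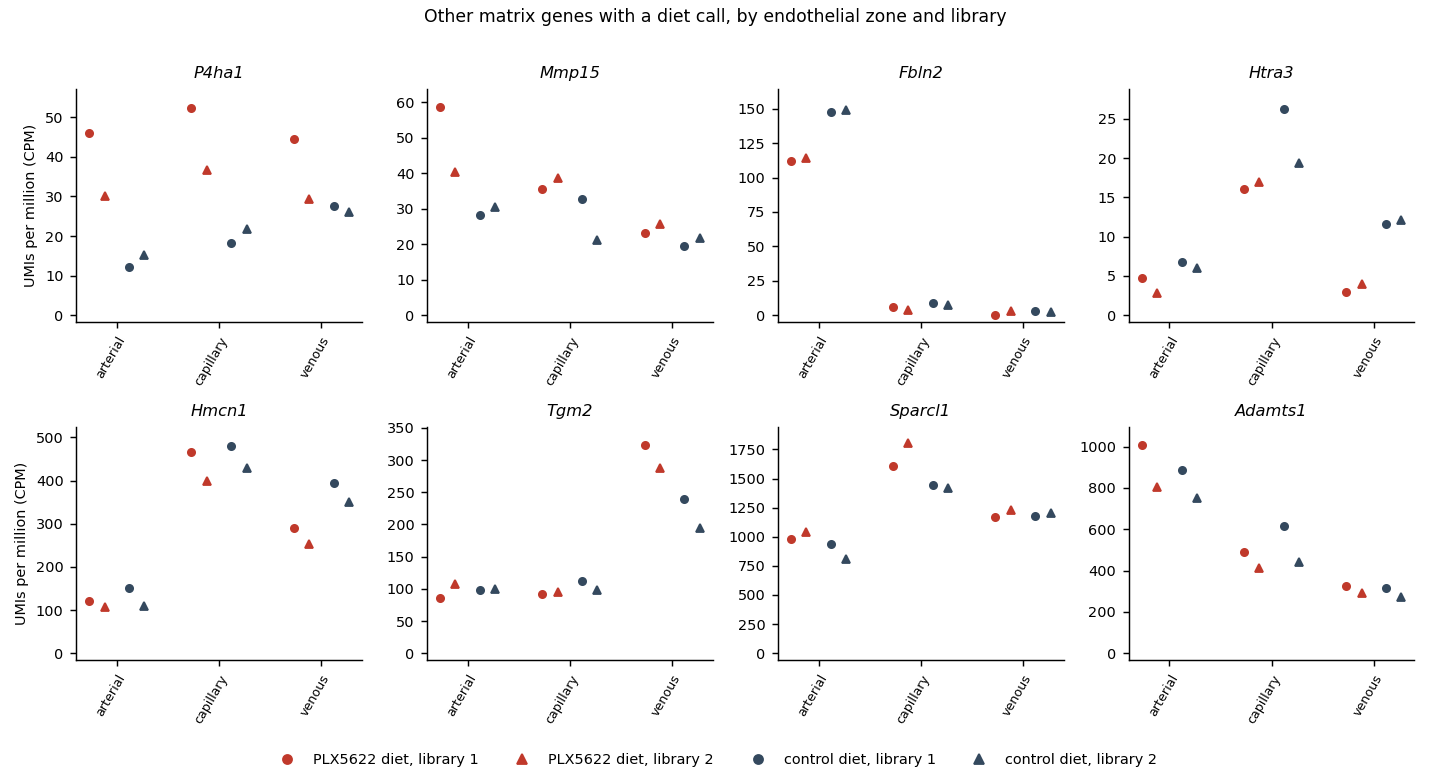
Level in CPM (linear axis) in arterial-like, capillary-like and venous-like cells of each library for the other matrix genes called in a diet fit, together with Sparcl1 and Adamts1, called by the zone by diet term; points are libraries, coloured by diet. In arterial-like cells P4ha1 and Mmp15 lie higher in both PLX5622 libraries than in both control libraries, and both are called there; Fbln2 (112 and 114 CPM on PLX5622 diet against 148 and 149 CPM on control diet) is not called in that zone (edgeR adjusted p = 0.316).

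Several of the genes with the smallest p in each list in endothelial-like cells were not called in any class. The collagen chaperone gene Serpinh1 had 163 and 133 CPM in endothelial-like cells on PLX5622 diet against 120 and 124 CPM on control diet (0.32, SE 0.11, edgeR adjusted p = 0.235). The lysyl hydroxylase gene Plod3 had 48.4 and 40.4 CPM on PLX5622 diet against 35.8 and 37.7 CPM on control diet (0.30, edgeR adjusted p = 0.268). Among receptors, the laminin receptor Bcam had 248 and 232 CPM on PLX5622 diet against 279 and 294 CPM on control diet (-0.21, edgeR adjusted p = 0.493). Itga4, an integrin alpha chain, had 15.7 and 10.9 CPM on PLX5622 diet against 11.4 and 9.17 CPM on control diet (0.44, edgeR adjusted p = 0.343). The laminin gamma3 chain gene Lamc3 had 8.72 and 6.42 CPM on PLX5622 diet against 10.3 and 10.7 CPM on control diet (-0.46, edgeR adjusted p = 0.307), and the nephronectin gene Npnt 4.15 and 4.67 CPM against 8.18 and 6.08 CPM (-0.58, edgeR adjusted p = 0.239). The protease gene Adamts9 had 12.6 and 13.4 CPM on PLX5622 diet against 11.97 and 8.81 CPM on control diet (0.43, edgeR adjusted p = 0.265). None of these changes passed the test.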

How the data were processed

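Per the labels, brain cells sorted for CD31 were made into 10x Genomics 3' v3.1 libraries, 2 for each diet. The authors' deposited tables hold whole-number UMI counts for each gene in each barcode, empty barcodes included. Software named in the submitters' processing notes is Cell Ranger 6.0.1 and Seurat 4.0, with mm10 and mm39 as builds of unstated role; no source used here says which annotation gave the counts. Gene coordinates come from GENCODE M21 (GRCm38), in which 32158 of the 32285 gene IDs were found, and promoter sequences from RefSeq (GRCm38.p6), which held 7 of the 10 genes.

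Cells reaching 1000 UMIs and 500 genes with mitochondrial UMIs not above 10% entered the clustering in scanpy 1.11.5 (igraph 0.11.9, Python 3.11.15; 2000 variable genes, 30 components, 15 neighbours, Leiden resolution 1; 20 components for endothelial cells). The 10 genes and 4 other matrix lists were left out of the clustering. For endothelial cells, mitochondrial, interferon, stress, lipid, cell cycle, hypoxia and ribosomal genes were left out as well. Clusters were named from 3 or more markers at a 4-fold level found in 25% of cells, or at 1.2-fold and 5% for zones, and named "-like" because they rest on markers alone. No doublet caller was run, and droplets with RNA of 2 types were set aside or limited by markers. The members, lists and markers were chosen with earlier results of these data known.

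UMI counts were summed per library and class. Diet tests were run on classes of at least 20 cells in each library, while levels, given as CPM of these sums, also cover smaller classes, with their cell numbers, and log2 ratios between classes use log2(CPM + 1). Diet effects were tested with edgeR 4.0.16 in R 4.3.3 (TMM, default filter on low counts, robust quasi-likelihood, two-sided, threshold 0.05), with fold changes as PLX5622 over control; TMM scaling can turn the sign of a fold change near 0 against the CPM means. DESeq2 1.42.0, limma-voom (limma 3.58.1) and other filters and subsets were alternatives. The edgeR scripts were tested on simulated data. Named genes are the 10 members, every gene of the lists called in a diet fit, and up to 3 genes of each list with the smallest p in endothelial-like cells, besides the 3 genes nearest in zone pattern to a member; those of Fn1 are not reported here. Intervals on counts cover counting error only.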

Additional observations from a re-analysis of the deposited data

Results flagged for a closer look

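The diet effect on 4 genes of the other matrix lists differed between zones by the zone by diet term (edgeR with library as a block, 12 sums of 3 zones in 4 libraries). The diet effect on Tgm2 was higher in venous-like than in capillary-like cells by 0.66 on the log2 scale (SE 0.09, adjusted p = 6.11e-09), where venous-like cells had 323 and 287 CPM on PLX5622 diet against 239 and 194 CPM on control diet. The effect on Hmcn1 was lower in venous-like than in capillary-like cells, with a difference of -0.38 (SE 0.08, edgeR adjusted p = 0.00104). The effect on Sparcl1, a relative of Sparc, was lower in venous-like cells too, with a difference of -0.26 (SE 0.06, edgeR adjusted p = 0.0146). The effect on Adamts1, a secreted matrix protease, was higher in arterial-like than in capillary-like cells by 0.32 (SE 0.07, edgeR adjusted p = 0.000817). Adamts1 had 1007 and 803 CPM in arterial-like cells on PLX5622 diet against 888 and 750 CPM on control diet. In capillary-like cells it had 490 and 415 CPM on PLX5622 diet against 616 and 440 CPM on control diet.

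None of the 4 was called without the library block. Tgm2 was not called without control replicate 2 (0.57). Hmcn1 was not called without PLX5622 replicate 1 (-0.38), PLX5622 replicate 2 (-0.39) or control replicate 2 (-0.39). Sparcl1 was not called without any 1 of the 4 libraries (-0.31 to -0.20), and Adamts1 was not called without PLX5622 replicate 1 (0.29), PLX5622 replicate 2 (0.38) or control replicate 1 (0.21).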

How the results depend on the processing

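The count of members called by the diet tests was 0 in endothelial-like, arterial-like, capillary-like, venous-like and pericyte-like cells under every alternative that was run there, and 0 to 1 in smooth muscle-like cells when 1 library was left out, with Fn1 called without control replicate 1. In such fits the lone library of a diet is assumed to vary like the others. Over genes, the deviations of same-numbered libraries had correlations of -0.105 to 0.056 in the 6 classes. With 1 difference between libraries per diet, this cannot show whether the numbers pair the libraries. With a replicate block the count of members called was 0 in each class. Over all genes in endothelial-like cells, that block gave 178 higher and 85 lower, against 97 higher and 50 lower without it (edgeR). Fold changes near 0 in endothelial-like cells turned sign. Col4a1 was -0.038 with no normalization factors, -0.00058 with limma-voom and -0.012 in cells without mural UMIs. Lamc1 was -0.0096 with equal weight of the zones, and Nid1 was 0.0084 without fenestrated-like cells, an alternative chosen after seeing the data. Leaving out 1 library gave -0.061 to 0.084 for Col4a1, -0.231 to 0.0015 for Lama5, -0.062 to 0.152 for Lamc1, -0.104 to 0.085 for Nid1, -0.076 to 0.021 for Sparc, and -1.65 to 0.13 for Fn1 in smooth muscle-like cells. The cause was not tested. The counts of members with ranges apart were 6 to 8 for venous-like against arterial-like cells, 5 to 7 for pericyte-like and 4 to 8 for smooth muscle-like against endothelial-like cells over all alternatives. The count of all genes called in endothelial-like cells was 63 to 345 over the alternatives, against 147. Of the pericyte-like level ratios, 9 moved by more than their spread in cells without RNA of the other type. The diet test in pericytes with little endothelial RNA (8 cells in the smallest library) and that of smooth muscle-like cells at 5% mitochondrial UMIs (6 cells) were not run. Few UMIs stand behind Lamb1 in endothelial-like cells (25 UMIs). The same holds for Lamb1 (28 UMIs), Hspg2 (22 UMIs), Fn1 (3 UMIs) and Lama5 (1 UMI) in pericytes with little endothelial RNA.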

Other observations

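A group of 19 fenestrated-like cells, named from markers such as Plvap, was found with 0 and 0 cells in the PLX5622 libraries and 6 and 13 cells in the control libraries. These are 0.406% and 0.271% of control endothelial-like cells, and 0 cells allow a share of up to 0.0879% and 0.0969% in the PLX5622 libraries. This limit treats cells as independent draws and does not cover differences between libraries or mice. Whether the share differs with the diet was not tested. Fenestrated endothelium is known from the choroid plexus and the circumventricular organs. In the control libraries these cells had 1599 and 1452 CPM of Col4a1, 757 and 1185 CPM of Col4a2, and 799 and 741 CPM of Hspg2, from 6 and 13 cells. Arterial-like cells of the same libraries had 619 and 498 CPM of Col4a1 and 109 and 87.9 CPM of Hspg2. Fn1 ran the other way, at 42.1 and 69.1 CPM in fenestrated-like cells (1 and 7 UMIs) against 648 and 575 CPM in arterial-like cells. Col15a1, a basement membrane collagen, had 126 and 395 CPM there (control libraries 1 and 2) and at most 1.98 CPM in the other endothelial zones. Lamb1 had 42.1 and 39.5 CPM in the fenestrated-like cells, from 1 and 4 UMIs.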
